A study of Homo sapiens and Mus musculus with 47 samples.

Results

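LINC00641 is a long noncoding RNA gene on human chromosome 14, and it was examined here with 7 genes that lie on one side of it: HNRNPC, RPGRIP1, SUPT16H, CHD8, RAB2B, TOX4 and METTL3. The 8 genes were taken by name from the 57820 genes of the human count tables, and 65 genes, LINC00641 included, start within 500 kb of its start site. They were read in 23 libraries of 2 cell lines, of which 17 were RNA-seq libraries of HEK293T cells, a human embryonic kidney line, and 6 were Chrom-seq libraries of HCT116 cells, a human colorectal carcinoma line.

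Long noncoding RNAs can act on chromatin far from their own gene, or in cis, on genes beside the place where they are transcribed. An antisense oligonucleotide (ASO) is a short synthetic strand that pairs with an RNA and can lead to its cleavage. After an ASO against a noncoding RNA, the genes next to its locus are therefore a natural place to look for a cis effect, and ASOs against RNAs from other chromosomes show how the same neighbours respond when the local RNA is not the target. The neighbours make unrelated proteins. HNRNPC binds nascent transcripts and takes part in splicing, METTL3 is the catalytic subunit of the m6A RNA methyltransferase, and SUPT16H is the large subunit of the histone chaperone FACT. CHD8 is a chromatin remodeller, TOX4 belongs to a phosphatase complex with PPP1R10 (PNUTS), RAB2B is a small GTPase of the early secretory pathway, and RPGRIP1 is a ciliary protein of photoreceptors.

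The ASO experiment comprised 11 HEK293T libraries: 3 with a control ASO, 2 with an ASO against LINC00641 (replicates 2 and 3), 3 with an ASO against SETD5-AS1 and 3 with an ASO against LINC00662. In the reader experiment, 3 HEK293T libraries were made with CBX7, a reader of the repressive histone mark H3K27me3, and 3 were labelled Control, with no treatment of their own in the labels. The study describes its RNA-seq comparison for CBX7 as one with untreated HEK293T cells, so Control may not be a reader-free construct. HCT116 cells carried either TAF3, a reader of the promoter mark H3K4me3, or the reader-free control (3 libraries each). Chrom-seq recruits the peroxidase APEX2 to a chromatin mark through such a reader and recovers the RNA that is biotinylated nearby. One protocol text is attached to every group, the ASO libraries included, and gives expression of the constructs for 48 h, 30 min in 500 µM biotin-aniline and 1 min in 1 mM H2O2. Whether the ASO cells received this labelling is not clear from it. Nothing in the labels says that replicates came from separate cultures, so p-values measure the spread between these libraries, which may be technical. The HEK293T Chrom-seq table was not analysed here.

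Library totals ran from 8258859 to 15330874 counts in HEK293T and from 14213105 to 17445889 in HCT116. Of the HEK293T markers, CDH2 was at 90.8 to 177.3 CPM (counts scaled by the library total and a TMM factor) and LIN28B at 102.1 to 157.3 CPM in HEK293T, against 0 to 0.303 and 0.128 to 0.424 CPM in HCT116, whereas PAX2 had similar ranges in both lines. Of the HCT116 markers, EPCAM was at 318.3 to 357.2 CPM in HCT116 and at 5.09 to 23.4 CPM in HEK293T. CDH17, VIL1 and LGALS4 were below 1 CPM in HCT116, and CDX2 was higher in HEK293T. EPCAM was therefore the 1 of these 5 markers that set the HCT116 libraries apart. The HEK293T values are RNA-seq and the HCT116 values Chrom-seq, scaled separately, so cell line and assay cannot be told apart.

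The sequences matter because they say which RNA each oligonucleotide can pair with. The study lists 2 ASOs of 20 bases against LINC00641 and 1 control ASO, and the sources used here do not say which of the 2, or whether both, went into the RNA-seq libraries. The ASOs are given 5′ to 3′ in lower case.
LINC00641-ASO-1: gatgtggagcaacagaaatg
LINC00641-ASO-2: gatagtggtatagtaactgg
control ASO: ttctccgaacgtgtcacgtt
Their target sites in LINC00641 follow, read from GRCh37 on the transcribed strand, with the 20 bases that pair with the ASO in capitals and 5 bases on each side.
LINC00641-ASO-1 site: atgaaCATTTCTGTTGCTCCACATCcttgc
LINC00641-ASO-2 site: ctcttCCAGTTACTATACCACTATCccaag

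LINC00641 (ENSG00000258441.1) lies on the minus strand at hg19 chr14:21668238-21675059. The first site is at chr14:21668966-21668985 and the second at chr14:21668698-21668717, with 248 bases between them. Both lie near the 3′ end of the gene, 728 and 460 bases from it, in exon 1 of one annotated transcript and in exon 2 of the other (GENCODE v44lift37). ASO-2 matched the genome exactly at 1 place. ASO-1 matched at 2 places, the other being an intronic site of RGS7BP at chr5:63867375-63867394, and the control ASO had 0 exact matches. The second match of ASO-1 differs from its LINC00641 site in the flanking bases alone.
RGS7BP site: atgagCATTTCTGTTGCTCCACATCaccac
RGS7BP, chosen for this match after the data were seen, had 20 and 17 counts with the LINC00641 ASO against 26, 24 and 35 with the control ASO, a log2 fold change of -0.79 that did not pass the test (edgeR adjusted p = 0.0733). Against any of the 7 neighbours, the closest transcribed stretch to either LINC00641 ASO had 5 to 7 mismatches. This was 4 to 7 for the SETD5-AS1 ASOs and 4 to 8 for the LINC00662 ASOs, so these came at least as close to some neighbours. The SETD5-AS1, LINC00662 and control ASOs had 6 to 8 mismatches to LINC00641 itself. Of the listed ASOs against LINC00662, LINC00662-ASO-3 matched the genome exactly at 112 places and LINC00662-ASO-2 at 0. Which of the listed ASOs were used is not said.

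The neighbours are packed closely. HNRNPC (ENSG00000092199.13, chr14:21677295-21737653, minus strand) starts 62.6 kb from the LINC00641 start site and its end is separated from it by 2235 bases. Beyond it lie RPGRIP1 (ENSG00000092200.8, chr14:21756098-21819460, plus strand), SUPT16H (ENSG00000092201.5, chr14:21819631-21852425, minus strand), and CHD8 (ENSG00000100888.8, chr14:21853353-21924285, minus strand). RAB2B (ENSG00000129472.8, chr14:21927179-21945132, minus strand) and TOX4 (ENSG00000092203.9, chr14:21944756-21967319, plus strand) are transcribed away from each other and share 377 bases at their 5′ ends. TOX4 and METTL3 (ENSG00000165819.7, chr14:21966277-21979517, minus strand) share 1043 bases at their 3′ ends. Whether the counting used strand was not given in the sources used here, so reads within these overlaps cannot be told apart.

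LINC00641 was strongly reduced by its own ASO. The 2 libraries held 12 and 27 LINC00641 counts (0.916 and 1.93 CPM), against 556, 443 and 461 counts (43.0, 38.5 and 41.4 CPM) with the control ASO. All other HEK293T libraries lay far above this pair. The mean was 1.42 ± 0.717 CPM (SD, n = 2) against 41.0 ± 2.29 CPM (SD, n = 3), or 3.47% of the control ASO level. This is a log2 fold change of -4.81 (standard error 0.192, edgeR quasi-likelihood test, adjusted p = 4.82e-13). In these bulk libraries, fewer cells with the RNA and less RNA per cell cannot be told apart.

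The other ASOs left LINC00641 closer to its control level. With the LINC00662 ASO it was at 39.2, 33.4 and 34.3 CPM, a range that overlapped the control ASO, and the log2 fold change was -0.15 (95% interval -0.33 to 0.03, edgeR adjusted p = 0.164). The SETD5-AS1 ASO gave 24.7, 29.7 and 25.1 CPM, all below the control ASO libraries. This fall of -0.62 on the log2 scale passed the test (standard error 0.0963, edgeR adjusted p = 3.34e-05) but was under the fold threshold for a call, 0.75 on the log2 scale. The other targets behaved likewise: SETD5-AS1 fell to 3.94 to 4.71 CPM and LINC00662 to 1.24 to 1.99 CPM with their own ASOs. SETD5-AS1 also fell by 0.82 with the LINC00641 ASO (edgeR adjusted p = 5.14e-07), to 29.0 and 30.7 CPM from 52.7 to 53.6 CPM, and by 0.83 with the LINC00662 ASO. In the Control libraries of the reader experiment SETD5-AS1 was at 29.2 to 32.4 CPM, near these lower levels and below the control ASO. LINC00641 with the SETD5-AS1 ASO was likewise at 91.0% of its Control mean. Those Control libraries come from a separate experiment, and no test was made. LINC00662 was at 18.2 and 15.3 CPM with the LINC00641 ASO against 12.4 to 14.3 CPM with the control ASO.

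**Figure D1:**
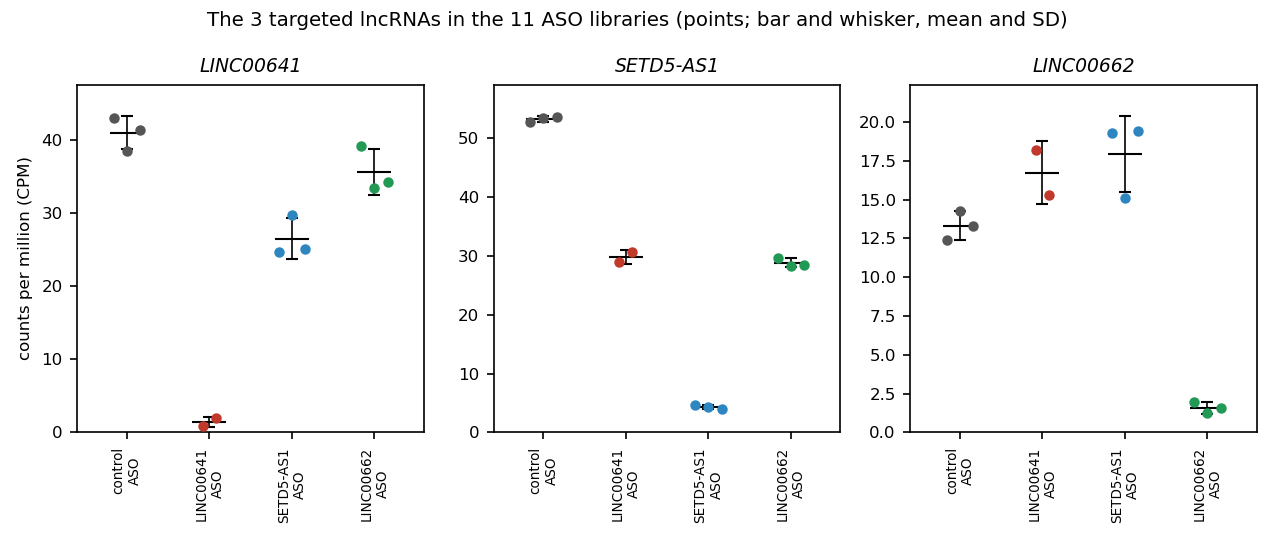
Levels of the 3 targeted noncoding RNAs (CPM, linear axis) in each of the 11 HEK293T ASO libraries, grouped by ASO. Points are libraries, and each RNA is lowest with its own ASO, LINC00641 at 0.916 and 1.93 CPM.

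The 7 neighbours were then compared between the LINC00641 ASO and the control ASO, which asks for a cis effect of losing the RNA. TOX4 was the single neighbour called, and it was lower. That is 14.3% of the 7, against 22.5% of all 18503 genes tested (11.5% lower). SUPT16H, CHD8 and RAB2B also fell and METTL3 rose, each by less than the fold threshold, and 49.7% of all genes passed the test at any size. The median log2 fold change of the neighbours was -0.52, against 0.004 over all genes. The groups did not overlap for 6 of the 7 neighbours, as for 65.4% of all genes.

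HNRNPC, the nearest of the 7, was at 920.2 and 823.9 CPM with the LINC00641 ASO and at 835.3, 922.0 and 821.9 CPM with the control ASO. The groups overlapped, and the log2 fold change was 0.03 with a 95% interval of -0.14 to 0.20 (edgeR adjusted p = 0.761). RPGRIP1, which has its role in the retina, was at the edge of detection, with 8 and 13 counts against 22, 18 and 12. Its log2 fold change of -0.89 had a 95% interval of -1.85 to 0.07 and did not pass the test (edgeR adjusted p = 0.118).

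Among the chromatin genes, SUPT16H was at 1057.1 and 960.1 CPM against 1259.7, 1276.3 and 1170.4 CPM with the control ASO, a fall of -0.28 on the log2 scale (standard error 0.0779, edgeR adjusted p = 0.00531). CHD8 was at 303.7 and 303.1 CPM against 444.0, 437.5 and 434.2 CPM. Its libraries were tight within each group, and its log2 fold change was -0.52 (standard error 0.0759, edgeR adjusted p = 9.69e-06).

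TOX4 moved most. It was at 47.6 and 48.3 CPM with the LINC00641 ASO and at 93.8, 102.8 and 99.8 CPM with the control ASO, a log2 fold change of -1.03 (standard error 0.0891, edgeR adjusted p = 1.02e-08). RAB2B, which starts head to head with it, was at 20.1 and 19.5 CPM against 32.6, 26.8 and 32.1 CPM, a log2 fold change of -0.61 (standard error 0.117, edgeR adjusted p = 0.00019). METTL3, at the other end of TOX4, went the other way, to 100.6 and 112.2 CPM from 83.1, 82.4 and 78.0 CPM, a log2 fold change of 0.40 (standard error 0.0854, edgeR adjusted p = 0.000549).

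**Figure D2:**
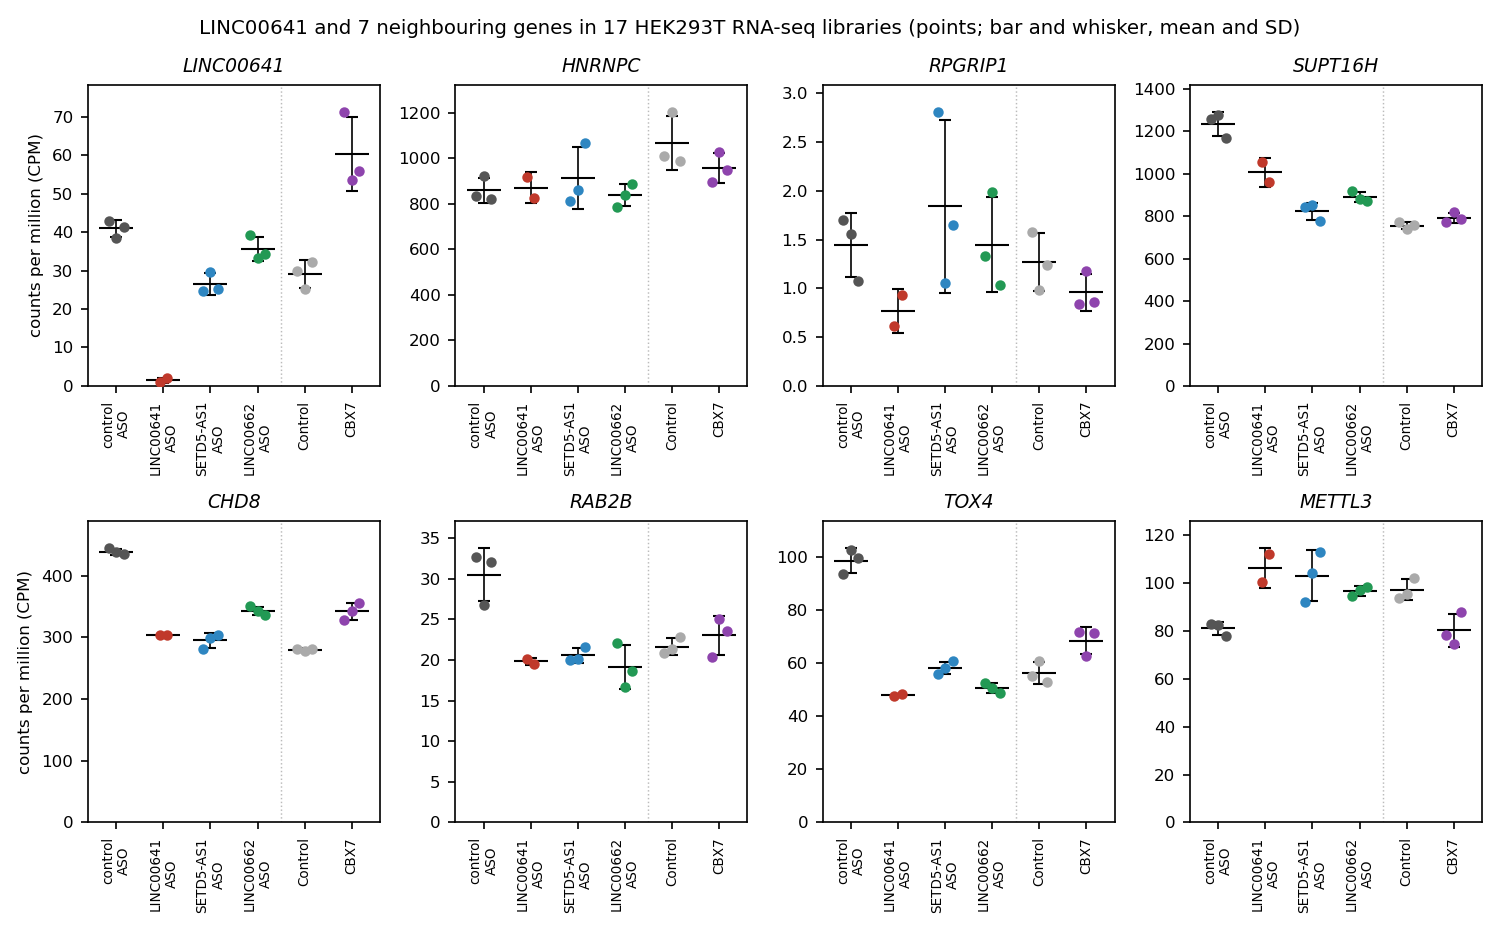
Levels of the 8 genes (CPM) in the 17 HEK293T RNA-seq libraries, one panel per gene, with points for libraries and the mean and SD per group. TOX4 is at 93.8 to 102.8 CPM in the control ASO libraries and at or below 71.7 CPM in all others.

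TOX4, SUPT16H, CHD8 and RAB2B were also lower, and METTL3 higher, with the ASOs against the other 2 RNAs, whose genes are on other chromosomes. These comparisons share the 3 control ASO libraries with the first, so their fold changes are not independent of it. TOX4 was at 56.0, 58.1 and 60.8 CPM with the SETD5-AS1 ASO and at 52.7, 50.7 and 49.0 CPM with the LINC00662 ASO. All 6 libraries lay below every control ASO library. Its log2 fold change was -0.91 with the LINC00662 ASO (standard error 0.0745, edgeR adjusted p = 9.35e-11), which was called. With the SETD5-AS1 ASO it was -0.7493 (standard error 0.0796, edgeR adjusted p = 4.04e-07), just under the fold threshold, and it was called under 7 of 13 alternative settings.

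With the SETD5-AS1 ASO, 0 of the 7 neighbours were called by edgeR (1 by DESeq2), while 24.4% of 18544 genes were, and 5 neighbours had an unadjusted p under 0.05. The same 5 passed after adjustment. SUPT16H fell to 842.2, 852.4 and 778.3 CPM (log2 fold change -0.57), CHD8 to 281.5, 299.5 and 303.7 CPM (-0.56), and RAB2B to 20.6 ± 0.926 CPM (SD, n = 3, -0.56). METTL3 rose to 92.1, 104.3 and 113.2 CPM, by 0.36 on the log2 scale. Their edgeR adjusted p ran from 2.59e-06 to 0.002, and 52.7% of all genes passed at any size. HNRNPC, at 814.9 to 1067.9 CPM, differed from the control ASO by 0.10 on the log2 scale (edgeR adjusted p = 0.383).

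With the LINC00662 ASO, TOX4 was the 1 neighbour called, 14.3% of the 7 against 24.9% of 18562 genes (13.3% lower). SUPT16H fell to 917.1, 879.6 and 873.4 CPM, a log2 fold change of -0.42. CHD8 fell to 349.9, 341.9 and 335.9 CPM (-0.30), and RAB2B to 22.1, 16.7 and 18.6 CPM (-0.62). METTL3 rose to 94.7, 97.3 and 98.5 CPM (0.31). The edgeR adjusted p of these 4 genes ran from 9.1e-07 to 0.000549, and 54.4% of all genes passed. HNRNPC was at 788.3 to 887.1 CPM with a log2 fold change of 0.02 (edgeR adjusted p = 0.84). RPGRIP1 passed with neither ASO (log2 fold change 0.34 for SETD5-AS1 and 0.05 for LINC00662).

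**Figure D3:**
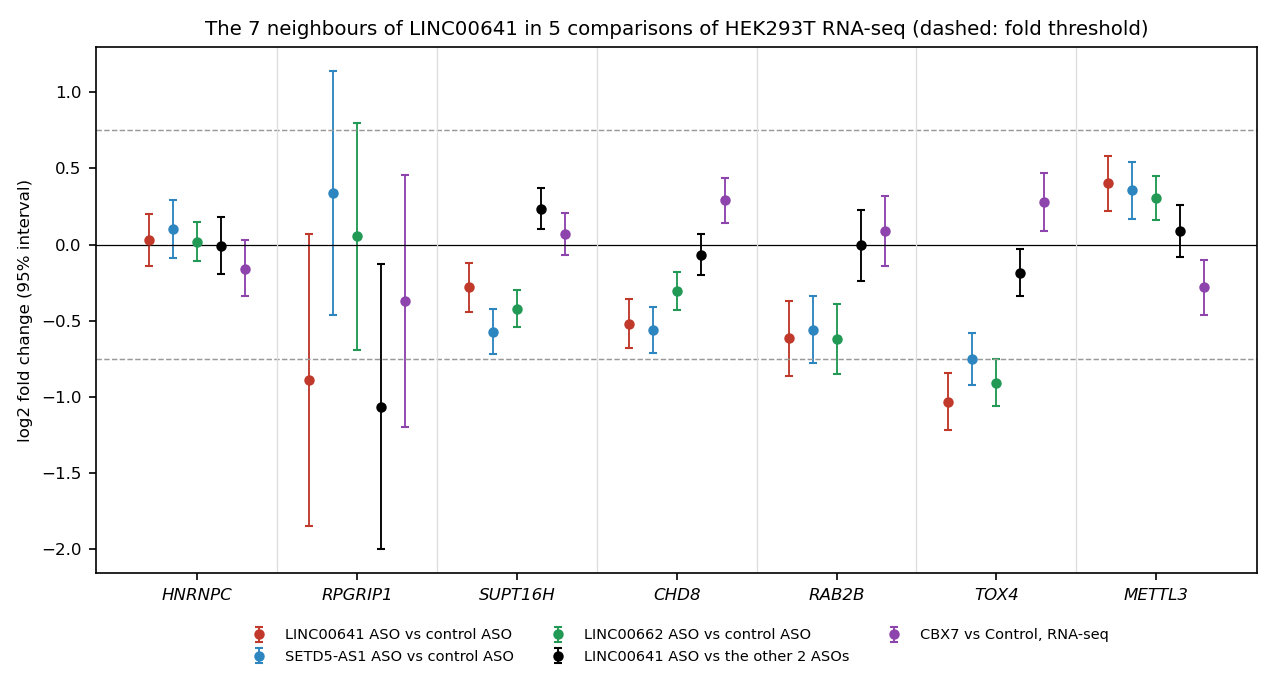
Log2 fold changes of the 7 neighbours in 5 HEK293T comparisons, with 95% intervals and dashed lines at the fold threshold of 0.75. TOX4, CHD8, RAB2B and SUPT16H lie below 0 and METTL3 above it with each of the 3 ASOs against the control ASO, and the intervals of HNRNPC, CHD8, RAB2B and METTL3 reach 0 when the LINC00641 ASO is set against the other 2.

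The difference itself was tested by setting the LINC00641 ASO against the mean of the SETD5-AS1 and LINC00662 ASOs, with no control ASO library in the fit. LINC00641 stood apart, at a log2 fold change of -4.41 (standard error 0.194, edgeR adjusted p = 7.33e-11). Of the 7 neighbours 0 were called by edgeR and 0 by DESeq2, against 3.80% of 18409 genes, and 3 had an unadjusted p under 0.05. After adjustment 1 passed, against 12.7% of all genes at any size. Their median log2 fold change was -0.01, against 0.006 over all genes. The difference was -0.01 for HNRNPC (95% interval -0.19 to 0.18), -0.07 for CHD8 (-0.20 to 0.07), -0.00 for RAB2B (-0.24 to 0.23) and 0.09 for METTL3 (-0.08 to 0.26). Each of these intervals lies within the fold threshold on both sides.

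For TOX4 the LINC00641 ASO libraries lay just below the other 6, and the difference was -0.18 on the log2 scale (95% interval -0.34 to -0.03, edgeR adjusted p = 0.124). RPGRIP1 had 8 and 13 counts against 34, 14 and 21 with the SETD5-AS1 ASO and 20, 29 and 14 with the LINC00662 ASO. Its log2 difference of -1.07 (standard error 0.446) missed the test after adjustment (edgeR adjusted p = 0.137), at a depth that leaves a wide error. SUPT16H was the single neighbour that passed, and it was higher with the LINC00641 ASO than with the other ASOs, by 0.24 on the log2 scale (standard error 0.0628, edgeR adjusted p = 0.0166). At any size, 12.7% of all genes passed. Its adjusted p reached 0.287 among the alternative settings and was under 0.05 in 15 of 17.

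The genes around the locus were also taken by position alone. Within 500 kb, 64 genes other than LINC00641 start, and 16 had enough counts for a test against the control ASO. With the LINC00641 ASO, 3 were called and all 3 were lower, 18.8% of those tested against 22.5% of all genes. They were TOX4, METTL17 and RP11-84C10.4. Rises in the window stopped short of a call: ZNF219 was at 0.7461 (edgeR adjusted p = 5.23e-06) and ARHGEF40 at 0.64 (edgeR adjusted p = 4.73e-05). Both were called as higher with the SETD5-AS1 ASO (0.95 and 0.90) and the LINC00662 ASO (1.04 and 1.01). With the SETD5-AS1 ASO the window held 2 higher and 2 lower calls, 23.5% of 17 tested against 24.4% of all genes. The LINC00662 ASO gave 2 higher and 1 lower, 18.8% of 16 tested against 24.9% of all genes. METTL17, a mitochondrial methyltransferase-like protein whose gene starts on the other side of LINC00641, at -217.1 kb, had 1241 and 1496 counts against 2488, 2288 and 2126 with the control ASO, a log2 fold change of -0.93 (edgeR adjusted p = 2.16e-08). It had 1138, 1158 and 1041 counts with the SETD5-AS1 ASO and 1768, 1593 and 1502 with the LINC00662 ASO, and the difference of the LINC00641 ASO from these was 0.02 (edgeR adjusted p = 0.906).

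RP11-84C10.4, annotated as an antisense gene, had 2 and 6 counts against 23, 17 and 16 with the control ASO, a log2 fold change of -2.36 (standard error 0.561, edgeR adjusted p = 0.00153). It had 8, 14 and 13 counts with the SETD5-AS1 ASO and 8, 16 and 11 with the LINC00662 ASO, and its difference from these of -1.52 did not pass (edgeR adjusted p = 0.0963). Against the other ASOs, 0 of 17 tested genes in the window were called by edgeR and 0 by DESeq2, and 7 had an unadjusted p under 0.05. After adjustment 2 passed, against 12.7% of all genes at any size. Without replicate 2 of the LINC00641 ASO the count called against the control ASO was 5 instead of 3.

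**Figure D4:**
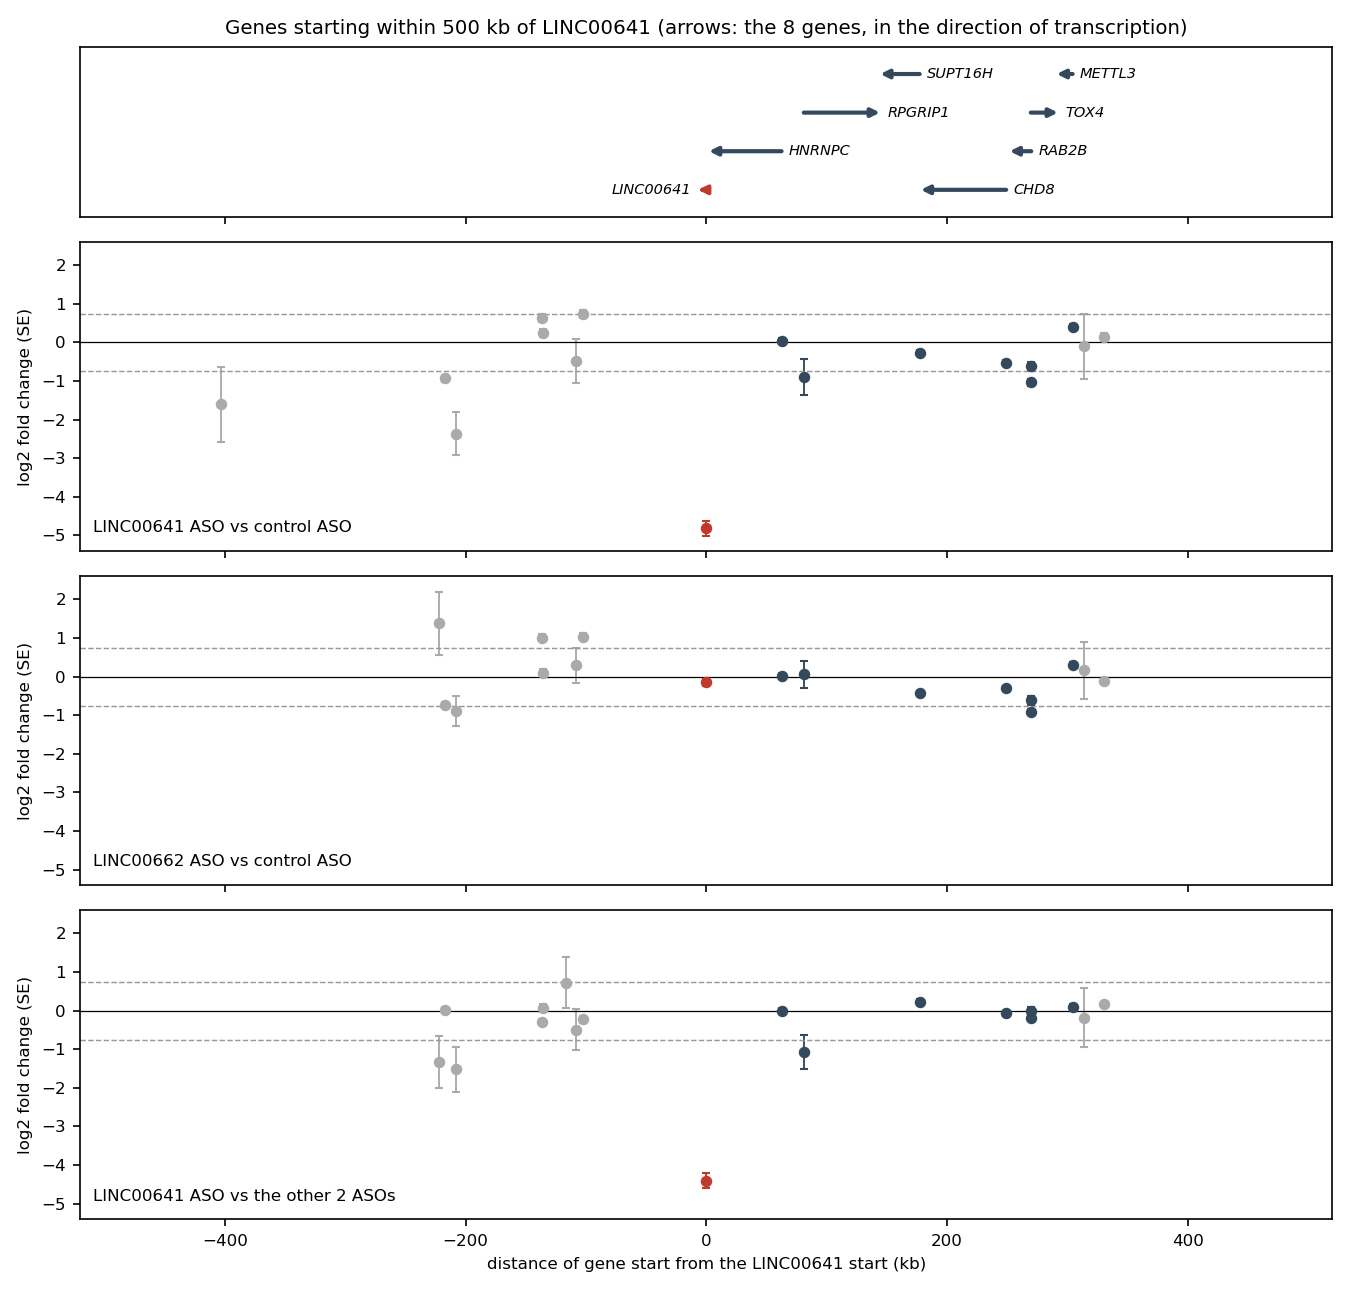
Gene map of the region (distance from the LINC00641 start site in kb) above the log2 fold changes of tested genes starting within 500 kb, with standard errors and dashed lines at the fold threshold. The 3 panels show the LINC00641 ASO against the control ASO, the LINC00662 ASO against the control ASO, and the LINC00641 ASO against the other 2 ASOs, where LINC00641 alone passes the fold threshold as a called gene.

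The HEK293T reader experiment gave another set of levels for the same genes. Its Control libraries held LINC00641 at 29.8, 25.3 and 32.3 CPM, TOX4 at 55.4, 60.8 and 53.0 CPM, CHD8 at 281.5, 277.1 and 280.9 CPM and SUPT16H at 773.2, 738.8 and 756.7 CPM. The control ASO libraries were above these, with means of 141% for LINC00641, 175% for TOX4, 157% for CHD8, 163% for SUPT16H and 141% for RAB2B, and below them for METTL3 (83.4%) and HNRNPC (80.4%). RAB2B lay at 20.8 to 22.8 CPM and METTL3 at 94.0 to 102.2 CPM in the Control libraries. Against the same Control means, the LINC00641, SETD5-AS1 and LINC00662 ASOs had TOX4 at 85.0%, 103.4% and 90.1%. In that order CHD8 was at 108.4%, 105.4% and 122.4%, RAB2B at 91.5%, 95.1% and 88.4%, and METTL3 at 109.3%, 106.1% and 99.5%. SUPT16H was at 133.4%, 109.0% and 117.7%, and HNRNPC at 81.6%, 85.6% and 78.5%. Except for HNRNPC, these genes lay nearer to Control with each targeting ASO than with the control ASO. The libraries come from separate tables and experiments, so table and treatment cannot be told apart and no test was made.

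With the CBX7 reader, LINC00641 was the 1 member called. It was at 71.3, 53.7 and 56.0 CPM, all above the Control libraries, with a mean of 60.4 ± 9.55 CPM against 29.1 ± 3.54 CPM (SD, n = 3 each). This is a log2 fold change of 1.05 (standard error 0.115, edgeR adjusted p = 1.28e-05). Over all 18204 genes, 7.66% were called (4.17% higher). CBX7 itself rose by 1.34 on the log2 scale, in counts that may include the construct. If the Control cells were untreated, the reader and the transfection of the constructs cannot be told apart. The neighbours did not follow to a call: 0 of 7 were called by edgeR and 0 by DESeq2. An unadjusted p under 0.05 was found for 3, which also passed after adjustment, against 29.2% of all genes. The median log2 fold change of the 7 was 0.07 against -0.012 over all genes.

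CHD8 was at 327.6, 343.1 and 355.3 CPM with CBX7, above all Control libraries, a rise of 0.29 on the log2 scale (95% interval 0.14 to 0.44, edgeR adjusted p = 0.00635). TOX4 was at 71.7, 62.8 and 71.4 CPM and rose by 0.28 (edgeR adjusted p = 0.0276). METTL3 was at 78.2, 74.5 and 88.1 CPM against 94.0, 95.7 and 102.2 CPM, a log2 fold change of -0.28 (edgeR adjusted p = 0.0223). Over all genes, 29.2% passed at any size. The adjusted p of TOX4 reached 0.102 and that of METTL3 0.108 among 12 alternative settings. HNRNPC (log2 fold change -0.16), SUPT16H (0.07), RAB2B (0.09) and RPGRIP1 (-0.37) did not pass the test. Within 500 kb, 1 of 16 tested genes was called, the pseudogene RP11-84C10.1 (log2 fold change 3.05, edgeR adjusted p = 0.00846), and 0 were called without replicate 2 of CBX7.

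In HCT116 Chrom-seq, LINC00641 was recovered at 53.3, 51.0 and 56.3 CPM with the TAF3 reader and at 37.9, 39.9 and 41.5 CPM in the reader-free control. The groups did not overlap, and the log2 fold change was 0.43 (standard error 0.0740, edgeR adjusted p = 8.7e-06), under the fold threshold. Of all 18731 genes, 6.62% were called and 34.9% passed at any size. HNRNPC was at 939.1, 959.9 and 962.4 CPM against 781.7, 801.7 and 786.5 CPM, and SUPT16H at 623.5, 638.3 and 652.5 CPM against 507.8, 522.5 and 555.7 CPM. Both rose by 0.27 on the log2 scale (edgeR adjusted p = 1.51e-05 and 3.57e-05). METTL3 rose by 0.20 (edgeR adjusted p = 0.0131), while CHD8 (0.02), TOX4 (0.12) and RAB2B (-0.14) did not pass. Of the 6 neighbours tested, 0 were called by edgeR and 0 by DESeq2, and 3 had an unadjusted p under 0.05. The same 3 passed after adjustment. RPGRIP1, with 0 to 3 counts a library, was below the filter.

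Partners of the neighbours in complexes and pathways were read from lists that hold 48 other genes, of which 47 were tested. Against the control ASO, the LINC00641 ASO gave 2 called higher and 1 called lower, the SETD5-AS1 ASO 4 and 2, and the LINC00662 ASO 6 and 2, while 22.5%, 24.4% and 24.9% of all genes were called. The called genes with the LINC00641 ASO were the m6A reader IGF2BP3 (log2 fold change 0.82), WDR5 (0.93) and PPP1R10 (-1.06). PPP1R10 scaffolds the phosphatase complex that holds TOX4, and 4 of the 5 genes tested of that list passed the test as lower at any size, against 24.4% of all genes. WDR82 was among them, at -0.56 (edgeR adjusted p = 1.92e-05). The count was 4 of 5 with the SETD5-AS1 ASO and with the LINC00662 ASO as well. In those comparisons 52.7% and 54.4% of all genes passed in either direction, and the share passing as lower is not given here. With the LINC00662 ASO the remaining gene, PPP1CB, passed as higher (log2 fold change 0.20, edgeR adjusted p = 0.032). Against the other 2 ASOs PPP1R10 was at -0.47 (edgeR adjusted p = 0.000301) and WDR82 at 0.05 (edgeR adjusted p = 0.735). PPP1R10 was at 67.5 and 67.1 CPM with the LINC00641 ASO, at 72.2 to 81.5 CPM with the SETD5-AS1 ASO and at 108.6 to 122.0 CPM with the LINC00662 ASO, so most of its difference lay with the LINC00662 ASO.

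Of the 18 m6A genes tested, 1 was called with the LINC00641 ASO against the control ASO and 10 passed at any size, 6 higher and 4 lower, where 22.5% of all genes were called and 49.7% passed. METTL14, the binding partner of METTL3, had a log2 fold change of -0.16 (edgeR adjusted p = 0.149), and WTAP, which holds the methyltransferase in the nucleus, rose by 0.46 (edgeR adjusted p = 0.00017). Against the other ASOs these 2 genes were at 0.08 and -0.23. IGF2BP3 was the 1 partner called in that comparison, with a log2 fold change of 1.14 (standard error 0.0862, edgeR adjusted p = 2.45e-08). It was at 91.1 and 89.6 CPM with the LINC00641 ASO, at 64.2 to 67.3 CPM with the SETD5-AS1 ASO and at 21.0 to 29.5 CPM with the LINC00662 ASO. SSRP1, the other FACT subunit, fell by 0.25 on the log2 scale against the control ASO (edgeR adjusted p = 0.00908) and was at 0.05 against the other ASOs. RAB2A, the paralog of RAB2B, was at 0.50 against the control ASO (edgeR adjusted p = 0.000284) and at -0.75, just under the fold threshold, against the other ASOs (edgeR adjusted p = 5.5e-05).

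Of the 47 partners 2 were called with CBX7, both higher, against 4.17% of all genes, and PPP1R10 was one of them, at a log2 fold change of 0.81 (edgeR adjusted p = 7.38e-06). With TAF3 in HCT116, 1 was called and 28 of 47 passed as higher at any size, against 17.9% of all genes.

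The genes most like LINC00641 over the 11 ASO libraries were on other parts of the genome. By Pearson correlation of log2 CPM among the 14278 genes that averaged 20 counts or more, they were SMARCAD1 (r = 0.985, chromosome 4), ETFA (0.975, chromosome 15), WDR17 (0.970, chromosome 4), RBPMS (0.963, chromosome 8) and ABCD4 (0.963, chromosome 14). These libraries share 4 treatments, and the 2 LINC00641 ASO libraries set most of the likeness, so r is a description. SMARCAD1, a chromatin remodeller, had 228 and 255 counts with the LINC00641 ASO against 823, 771 and 703 with the control ASO, and 710 to 792 with the SETD5-AS1 ASO and 756 to 875 with the LINC00662 ASO. It was chosen on these libraries, so no test is given. Its closest transcribed stretch had 5 mismatches to either LINC00641 ASO, and that of ETFA had 3 and 4. For SMARCAD1 the fewest were 4 with the listed LINC00662 ASOs and 5 with the SETD5-AS1 ASOs, and for ETFA 5 and 6. Pairing of any ASO with these RNAs was not tested. Among the neighbours, TOX4 ranked 1503 (r = 0.496) and CHD8 1672 (r = 0.479), and METTL3 ranked 12635 (r = -0.499).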

How the data were processed

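Polyadenylated RNA libraries were sequenced by the authors. Per the submitters' processing notes, FastQC 0.11.8, fastp 0.23.1, HISAT2 2.1.0, featureCounts 2.0.1 and DESeq2 1.34.0 were used with hg19. The 3 human tables hold read counts for each gene that the authors deposited without normalization, with 0 unused columns; the Chrom-seq table of HEK293T cells was not analysed here, and its 2 planned comparisons were not run. The length column holds the gene span for all 57820 genes, so levels were not compared between genes.

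Each comparison was fitted over its whole table in R 4.3.3 with edgeR 4.0.16 (quasi-likelihood test, TMM, Benjamini-Hochberg), for genes with a summed count over 3 per library. Calls needed an adjusted p below 0.05 together with a log2 change of 0.75 or more in either direction. The share of all genes with an unadjusted p under 0.05 was not counted. Levels are CPM with TMM factors. Precision is limited by the library totals, and reads are not independent molecules. Among 22 replicate pairs 0 were identical. Replicate numbers come from the titles. Same-numbered CBX7 and Control libraries deviated together weakly (r = 0.18, 0.33 and 0.13 across genes), and in the other comparisons r ran from -0.16 to 0.16. Whether these numbers pair the samples is not known, and the main fits used no replicate block.

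Named genes were the 8 members, called genes within 500 kb with the LINC00641 ASO, partners called against the other 2 ASOs, SSRP1, METTL14, WTAP, PPP1R10, WDR82 and RAB2A, the 5 genes most like LINC00641 (prior count 2), and the other targets. WDR5, RGS7BP, RP11-84C10.1, ZNF219 and ARHGEF40 were named after their values were seen. The members and lists were chosen with earlier results of these data known. ASO sequences came from the study's supplement and were matched to both strands of GRCh37. The fit was tested on simulated counts. Alternatives were DESeq2 1.42.0, other scalings and filters, a replicate block, all ASO groups in one fit, a 1 Mb window and leaving out each library.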

Additional observations from a re-analysis of the deposited data

How the results depend on the processing

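Of 790 alternative values for the 8 genes and the counts of genes called, 742 were kept and 18 counts moved. For a gene, kept means the same direction and the same side of the threshold. For a count, small shifts from the main count were within the tolerance and are among the 742. None of the calls on the 8 genes was lost. The log2 fold change of LINC00641 ran from -5.45 to -4.38 against the control ASO, from -5.06 to -3.99 against the other 2 ASOs and from 0.92 to 1.13 with CBX7.

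The count of neighbours called with the SETD5-AS1 ASO was 1 instead of 0 with DESeq2, DESeq2 size factors, filterByExpr and all ASO groups in one fit, and ran from 0 to 1 when 1 library was left out (1 without control ASO replicate 1 or 3 or SETD5-AS1 ASO replicate 3), in each case through TOX4 at -0.79 to -0.75. In a 1 Mb window, 7 genes were called with each of the 3 ASOs against the control and 1 of 26 tested with TAF3. These were 25.9% of 27 tested with the LINC00641 ASO, 24.1% of 29 with the SETD5-AS1 ASO and 25.9% of 27 with the LINC00662 ASO. Over all genes, 22.5%, 24.4% and 24.9% were called, and 6.62% with TAF3. The count within 500 kb ran from 3 to 5 with the LINC00641 ASO when 1 library was left out, from 3 to 5 with the LINC00662 ASO (5 without its replicate 1 or 2, and 5 with all ASO groups in one fit), from 0 to 1 with CBX7 (0 with filterByExpr), and from 0 to 1 with TAF3 (1 without Control replicate 2).

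Changes of sign were all in values that did not pass the test. When a library was left out, HNRNPC ran from -0.04 to 0.11 for the LINC00641 ASO (-0.01 and -0.00 among them) and from -0.03 to 0.18 for the SETD5-AS1 ASO. Over all 13 alternatives with the SETD5-AS1 ASO, HNRNPC reached 0.24 and passed the test in 1. With the LINC00662 ASO it ran from -0.02 to 0.06 (-0.01 among them) and was at -0.05 with all ASO groups in one fit. RPGRIP1 ran from -0.09 to 0.62 for the SETD5-AS1 ASO and from -0.24 to 0.25 (-0.12 among them) for the LINC00662 ASO, and was at -0.01 with all ASO groups in one fit. In the LINC00641 ASO against the other 2, CHD8 was at 0.03 against the SETD5-AS1 ASO alone, and HNRNPC at 0.07 and RAB2B at 0.06 against the LINC00662 ASO alone; leaving out a library gave -0.09 to 0.07 for HNRNPC and -0.05 to 0.06 for RAB2B. In HCT116, CHD8 ran from -0.02 (without TAF3 replicate 3) to 0.06. The causes were not tested.

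The replicate block changed no call on the 8 genes, put RAB2B at 0.04 against the other 2 ASOs, and gave 1847 higher and 1922 lower calls over all genes with the LINC00641 ASO against the control ASO (2034 and 2124 without it). With CBX7, 4 of 6 libraries correlated best with their own number in the other group, and 0 of 6 did so in each of the SETD5-AS1 ASO, LINC00662 ASO and TAF3 comparisons. Over all genes, the LINC00641 ASO gave 515 higher and 184 lower calls against the other 2 ASOs, 125 and 191 against the SETD5-AS1 ASO alone, and 1130 and 414 against the LINC00662 ASO alone. Scaling by library size alone moved the median of all genes with the SETD5-AS1 ASO from 0.028 to 0.166 and the share of calls that were higher from 52.8% to 66.5%. The 2 comparisons planned on HEK293T Chrom-seq were not run. Depth limited RPGRIP1 and RP11-84C10.4, both under 40 counts a library.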
